A study of Homo sapiens with 12 samples.

Results

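Trichostatin A (TSA), which blocks histone deacetylases, was given at 1 µM to 3 human carcinoma lines, and their RNA was sequenced beside that of the same lines left untreated. The comparison used 6 of the 12 libraries of the series directly: MHCC97H, A549 and HCT116 with TSA, and MHCC97H, A549 and HCT116 untreated. They were chosen by their labels alone, and each line gave 1 library per condition, so the replicates are the 3 lines (n = 3). MHCC97H is labelled as a hepatocellular carcinoma line, A549 derives from a lung adenocarcinoma and HCT116 from a colorectal carcinoma. The medium was DMEM for MHCC97H and A549 but RPMI 1640 for HCT116, and effects of medium and of line cannot be told apart. The other 6 libraries, from the same lines with GSK126 at 50 µM, which inhibits the methyltransferase EZH2, or S2101 at 100 µM, which inhibits the demethylase LSD1, entered the fit. How long cells were treated, and whether untreated cells had a vehicle, is not given in the sources used here.

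Histone deacetylases remove acetyl groups from lysines of histones and of many other proteins. TSA blocks the zinc-dependent classes of these enzymes, and acetylated histones then build up on chromatin. Cultured carcinoma cells given such inhibitors are known to slow or stop dividing and to switch on genes of other tissues, while many highly transcribed genes lose expression.

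Totals of the 6 libraries ran from 14626512 to 16290673 counts. Levels are given as CPM, the count per library total scaled with TMM factors; a gene with 3 reads stood at 0.157 to 0.207 CPM across the 12 libraries. Ribosomal RNA28S5 took 1.52 to 1.99% of the counts with TSA and 1.24 to 1.74% untreated, and MALAT1 took 0.801 to 1.12% with TSA and 0.198 to 0.426% untreated. Their part in the results below was not tested. The lines were set against markers of their tissue of origin. In MHCC97H the liver markers summed to 76.9 CPM with TSA and 152.5 CPM untreated, with ALB at 0.199 CPM with TSA and 0.562 CPM untreated, whereas the intestinal keratin KRT20 stood at 1208 CPM with TSA and 1161 CPM untreated. In A549 the 9 lung markers summed to 5.61 CPM with TSA and 5.38 CPM untreated, and AQP5 was at 0 in both. In HCT116 the 10 intestinal markers summed to 46.6 CPM with TSA and 33.4 CPM untreated, with CDX1 at 0 in both. The 6 fibroblast markers summed to 58.1, 91.1 and 66.1 CPM with TSA in MHCC97H, A549 and HCT116, against 10.8, 12.4 and 25.1 CPM untreated. COL1A1 made up 36.6, 89.5 and 62.5 CPM of these sums with TSA and 1.12, 11.7 and 24.5 CPM untreated, and LUM 15.3 CPM with TSA and 6.74 CPM untreated in MHCC97H. The blood marker LYZ stood at 18.9 to 21.5 CPM with TSA and 13.5 to 17.9 CPM untreated, while CD3E, a T cell marker, stood at 0.132 CPM or less with TSA and at 0 untreated.

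The promoters of the first 3 recurrently higher and the first 3 recurrently lower genes with an entry in the RefSeq table (build GRCh38.p14) are shown because the letters before the start site differed between the 2 sets of genes, as described further on. Each line gives the 200 bases before the start site of the table, 5′ to 3′ on the strand of the gene, with every match to 13 searched motifs in capitals, in either orientation. VGF, SYT11 and ZCCHC12 were higher with TSA. Their windows lie at chr7:101165570-101165769 on the minus strand, chr1:155859367-155859566 on the plus strand and chrX:118823624-118823823 on the plus strand.
VGF: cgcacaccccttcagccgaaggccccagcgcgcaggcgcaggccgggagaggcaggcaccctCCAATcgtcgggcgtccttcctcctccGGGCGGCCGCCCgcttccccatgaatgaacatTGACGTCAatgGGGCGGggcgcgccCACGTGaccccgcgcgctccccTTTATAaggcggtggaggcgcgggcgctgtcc
SYT11: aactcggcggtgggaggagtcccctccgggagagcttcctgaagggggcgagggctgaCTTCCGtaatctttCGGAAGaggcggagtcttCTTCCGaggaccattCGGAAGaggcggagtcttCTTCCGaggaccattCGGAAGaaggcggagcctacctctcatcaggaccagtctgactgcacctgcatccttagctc
ZCCHC12: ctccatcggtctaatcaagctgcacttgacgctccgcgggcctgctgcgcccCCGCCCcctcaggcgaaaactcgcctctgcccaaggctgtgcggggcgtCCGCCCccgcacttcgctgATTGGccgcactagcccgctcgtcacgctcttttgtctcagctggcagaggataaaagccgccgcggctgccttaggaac
TYMS, DHRS3 and TRIB3 were lower with TSA. Their windows lie at chr18:657453-657652 on the plus strand, chr1:12618211-12618410 on the minus strand and chr20:381095-381294 on the plus strand.
TYMS: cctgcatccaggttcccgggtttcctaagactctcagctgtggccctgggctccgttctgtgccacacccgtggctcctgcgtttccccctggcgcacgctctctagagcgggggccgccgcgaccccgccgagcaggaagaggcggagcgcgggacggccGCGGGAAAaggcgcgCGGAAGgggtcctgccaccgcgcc
DHRS3: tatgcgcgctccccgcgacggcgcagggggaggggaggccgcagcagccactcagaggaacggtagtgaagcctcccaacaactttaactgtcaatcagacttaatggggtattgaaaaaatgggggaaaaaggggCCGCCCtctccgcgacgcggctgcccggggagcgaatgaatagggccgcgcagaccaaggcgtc
TRIB3: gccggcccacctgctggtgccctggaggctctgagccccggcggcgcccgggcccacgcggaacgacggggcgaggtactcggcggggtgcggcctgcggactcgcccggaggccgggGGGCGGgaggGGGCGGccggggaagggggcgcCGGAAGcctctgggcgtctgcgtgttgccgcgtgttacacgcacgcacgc
The VGF window holds TATAAA with its first base at -32, TGACGTCA, the cAMP response element, at -79, CCAAT at -138 and 3 matches to GGGCGG, the GC box. ZCCHC12 holds CCAAT at -80 and 2 GC boxes. SYT11 holds 6 matches to CGGAAG, the core of ETS factor sites. TYMS holds an E2F-type match at -39 and CGGAAG at -24, DHRS3 a single GC box, and TRIB3 2 GC boxes and 1 CGGAAG. A match is a description of these letters, not a site shown to be bound.

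TSA moved a large part of the transcriptome in both directions. Of 16929 genes tested, 5851 (34.6%) had a Benjamini-Hochberg adjusted p under 0.05 by the quasi-likelihood test of edgeR: 2947 (17.4%) were higher and 2904 (17.2%) lower with TSA. The median change of a called gene was 1.74 on the log2 scale for the higher genes and -1.01 for the lower ones. The 2 sets differed in level, with medians of 4.75 CPM untreated for the higher and 63.9 CPM for the lower genes. Genes with few reads need a larger change to be called and have little room to fall. Their medians, and the counts of genes moved 4-fold, therefore do not compare increases and decreases on like terms. Genes at least 4-fold higher in each of the 3 lines numbered 75 (0.443%), against 6 (0.0354%) at least 4-fold lower in each. At 2-fold the numbers were 459 (2.71%) higher and 376 (2.22%) lower. The called higher genes held 20.6, 21.5 and 17.2% of all counts with TSA in MHCC97H, A549 and HCT116, against 7.73, 7.18 and 8.92% untreated. The called lower genes held 18.9, 19.9 and 24.9% with TSA, against 36.5, 37.1 and 37.0% untreated. The 100 genes with the most reads took a similar share in both conditions, 20.5 to 23.5% with TSA and 19.7 to 21.8% untreated.

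The split between higher and lower depends on the scaling. With library totals in place of TMM factors 3739 genes were higher and 2065 lower, and the median over all genes moved to 0.26 from 0.08 with TMM. The number called rests on A549 and on the 12-library fit: without A549 12 genes were called, without MHCC97H 1152, without HCT116 6487, and 0 when the 6 libraries were fitted alone, where 5064 genes had an unadjusted p under 0.05.

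The response was shared most closely by MHCC97H and A549 and was smaller in HCT116. Across the 16929 genes the within-line log2 ratio of TSA to untreated correlated with r = 0.73 between MHCC97H and A549, 0.42 between MHCC97H and HCT116 and 0.48 between A549 and HCT116, which describes genes and not independent samples. Its SD was 1.15 in MHCC97H, 1.18 in A549 and 0.709 in HCT116. MHCC97H had 2608 genes at least 2-fold higher and 2455 at least 2-fold lower, A549 had 2711 and 2601, and HCT116 had 1280 and 853. Of the genes 2-fold higher in exactly 2 lines, 1151 were so in MHCC97H and A549, 212 in A549 and HCT116 and 123 in MHCC97H and HCT116. For genes 2-fold lower these numbers were 1184, 96 and 92. With 1 library per line and condition, the difference between lines was not tested.

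**Figure D1:**
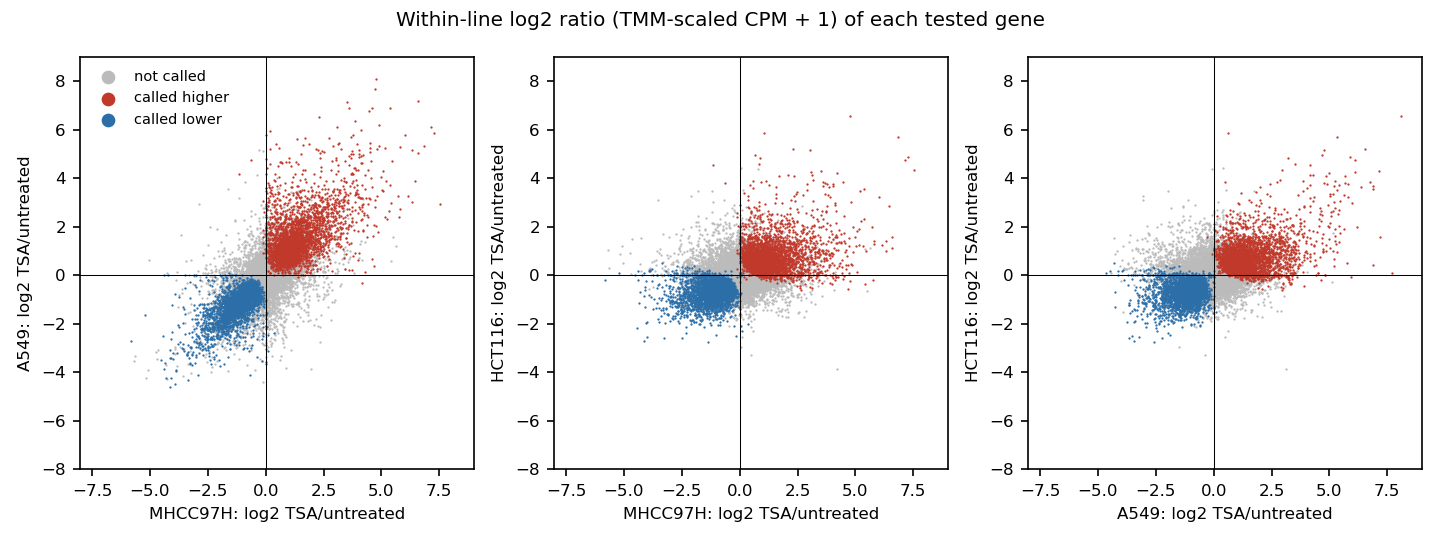
Within-line log2 ratio of TSA to untreated (TMM-scaled CPM plus 1) for 16929 tested genes, with each pair of lines in its own panel and genes coloured by the call of the 12-library fit. The cloud follows the diagonal for MHCC97H and A549 (r = 0.73) and is flatter along HCT116 (r = 0.42 and 0.48).

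Increases were commonest among genes with few reads and decreases among genes with many. The tested genes were divided into 5 equal bins by their mean CPM over the 12 libraries, a measure of reads that is not divided by gene length. In the lowest bin, up to 2.15 CPM, 25.4% were called higher and 1.57% lower. In the highest bin, from 69.4 CPM, 10.9% were called higher and 34.0% lower. The median within-line ratio followed the same order in each line: it was 0.27, 0.30 and 0.22 in the lowest bin and -0.33, -0.35 and -0.23 in the highest, in MHCC97H, A549 and HCT116. The filter on low counts used all 12 libraries, so genes could enter the lowest bin through their reads with TSA alone. Of the tested genes, 50 had 0 reads in all untreated libraries and 3 had 0 in all TSA libraries. The split of the lowest bin, in calls and in median ratios, can thus be partly set by the filter. Fewer genes had no reads with TSA, 22.2 to 23.3% of the listed genes, than untreated, 28.1 to 30.3%, and these ranges did not overlap.

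**Figure D2:**
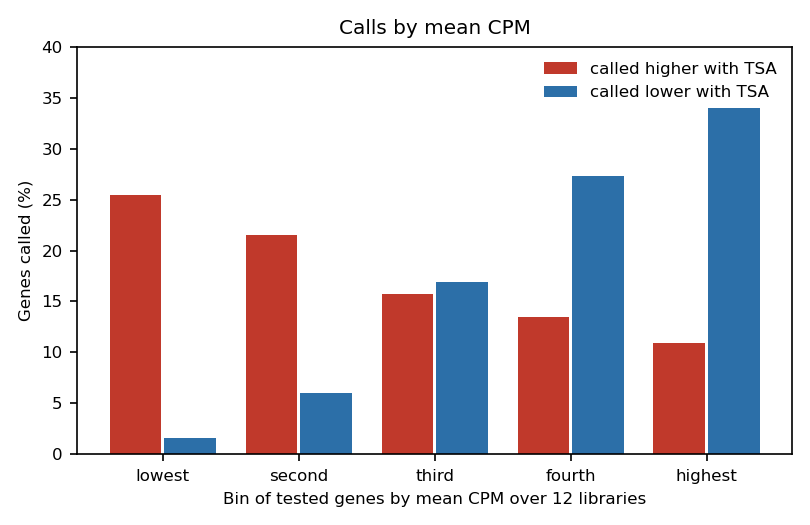
Share of tested genes called higher and called lower with TSA, by bin of mean CPM over 12 libraries; bars are percentages of the genes in a bin. The higher share falls to 10.9% and the lower share climbs to 34.0% in the highest bin. Genes could enter the lowest bin through their reads with TSA alone.

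Gene classes of the annotation differed in their calls. Of 1156 long non-coding genes 207 were called higher and 40 lower, while of 14890 protein-coding genes 2608 were higher and 2811 lower. Set against all genes of the same CPM bins, of which 23% were higher and 5.25% lower, the long non-coding genes were at 17.9% and 3.46%. Transcribed pseudogenes stood at 88 higher (18.8%) and 27 lower (5.78%) of 467, against 22.2% and 6.35% in their CPM bins. Genes listed as snoRNA gave 1 higher (2.44%) and 2 lower (4.88%) of 41, against 25.3% and 1.67% in their CPM bins, with a median change of -0.20. Without A549 2 long non-coding genes were called higher, without MHCC97H 46 and without HCT116 156. Chromosome 19 had the highest share called higher among the chromosomes, 21.0% of 1191 genes, with 10.4% lower. Over all genes 17.4% were higher and 17.2% lower, and in its CPM bins 17.95% and 15.7%. Chromosomes 9, 6 and 17 came close, with 20.72, 20.7 and 20.45% higher, so the higher share was not particular to chromosome 19.

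The 15 recurrently higher genes had varied known roles. VGF, a neuropeptide precursor of secretory granules, had 513, 443 and 2746 CPM with TSA in MHCC97H, A549 and HCT116, against 3.44, 10.1 and 51.8 CPM untreated. Each TSA library stood above each untreated one, and the change was 6.35 ± 0.74 on the log2 scale (SE; edgeR adjusted p 0.00149). SYT11, a synaptotagmin of vesicle traffic, had 254, 227 and 39.0 CPM with TSA, against 0.632, 2.90 and 0.351 CPM untreated. Its change was 7.79 ± 1.05 (adjusted p 0.00201), with no overlap between the groups. ZCCHC12, a zinc-finger coactivator described in neurons, had 201, 86.4 and 96.5 CPM with TSA and 0.421, 0.276 and 2.58 CPM untreated. NGFR, the low-affinity neurotrophin receptor, had 43.4, 126 and 198 CPM with TSA, against 0.0702, 0.0689 and 16.2 CPM untreated, so HCT116 already carried it. CEND1, a neuronal protein of cell cycle exit, rose to 71.2, 67.3 and 22.5 CPM with TSA, against 0.983, 3.65 and 1.11 CPM untreated.

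DHRS2, a short-chain dehydrogenase of mitochondria, had 30.1, 2552 and 1993 CPM with TSA and 0.140, 8.34 and 19.9 CPM untreated, a change of 7.23 ± 1.10 (adjusted p 0.00262) that was smallest in level in MHCC97H. IL15, a cytokine for T and NK cells, had 81.9, 368 and 62.6 CPM with TSA, against 4.14, 9.17 and 3.98 CPM untreated. GBP5, a guanylate-binding protein otherwise known for its induction by interferon, had 73.2, 274 and 56.3 CPM with TSA and 2.32, 1.52 and 2.99 CPM untreated. Both were highest with TSA in A549. COL5A3, a fibrillar collagen chain, rose by 5.45 ± 0.68 (adjusted p 0.00173), and DNAH3, an axonemal dynein heavy chain of motile cilia, by 6.92 ± 1.09 (adjusted p 0.00282). RFPL4A, a RING-finger gene of oocytes and early embryos, had 18.5, 30.4 and 18.9 CPM with TSA and at most 0.0702 CPM untreated. The alpha-globin gene HBA2 had 11.9, 64.9 and 24.6 CPM with TSA, against 0, 0.276 and 0.820 CPM untreated. RFPL4A and HBA2 have near-identical neighbours, and how shared reads were counted is not given in the sources used here. ZNF80, C5orf27 and LOC643201 completed the 15, with within-line ratios of at least 3.61 in each line.

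Recurrent non-coding increases included SCHLAP1, a long non-coding RNA first described in prostate cancer, with 52.9, 206 and 27.9 CPM with TSA and 2.11, 2.27 and 2.63 CPM untreated. LOC101929181 rose by 5.23 ± 0.80 (adjusted p 0.00262), LINC00923 by 3.99 ± 0.57 (adjusted p 0.00222) and UBL7-AS1 by 4.11 ± 0.46 (adjusted p 0.00136). UBL7-AS1 is an antisense gene, and without the strand setting of the counting its reads and those of UBL7 cannot be told apart. All 4 were highest with TSA in A549. Among non-coding genes the recurrent decreases were smaller: FGD5-AS1 had 60.3, 89.5 and 51.5 CPM with TSA, against 116, 175 and 102 CPM untreated.

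The 15 recurrently lower genes likewise had varied known roles. TYMS, thymidylate synthase, had 5.17, 12.4 and 33.2 CPM with TSA, against 108, 144 and 224 CPM untreated, a change of -3.43 ± 0.42 (edgeR adjusted p 0.00169). CCNA2, the cyclin of S phase and G2, had 4.97, 20.8 and 29.1 CPM with TSA and 98.7, 111 and 118 CPM untreated. CDCA7, a cell-division gene regulated by MYC and E2F, fell by 2.56 ± 0.26 on the log2 scale (adjusted p 0.00112), and HMGB2, a chromatin protein of proliferating cells, by 2.27 ± 0.36 (adjusted p 0.00299). In each of these genes but HMGB2 every TSA library lay under every untreated library; HMGB2 in HCT116 with TSA, at 176 CPM, lay above untreated A549, at 149 CPM.

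SLC7A11, the cystine-glutamate antiporter, had 93.6, 46.4 and 42.0 CPM with TSA, against 898, 594 and 261 CPM untreated, a change of -3.16 ± 0.27 (adjusted p 0.00111). SLC38A1, a glutamine transporter, had 114, 43.6 and 137 CPM with TSA and 925, 466 and 517 CPM untreated. TRIB3, a pseudokinase induced by amino acid shortage, had 37.0, 17.4 and 19.4 CPM with TSA, against 211, 86.7 and 123 CPM untreated. The groups of all 3 were apart. SERPINH1, the collagen chaperone HSP47, fell by 3.01 ± 0.43 (adjusted p 0.00223) and HSPH1, a chaperone of the HSP110 family, by 2.25 ± 0.15 (adjusted p 0.00111). HSPH1 had within-line ratios of -2.32, -1.96 and -2.40. KRT7, a keratin of simple epithelia, had 1.59, 217 and 7.15 CPM with TSA and 9.27, 2898 and 30.0 CPM untreated, so that A549 carried nearly all its reads. DHRS3, a retinal reductase, had 3.31, 3.94 and 7.33 CPM with TSA against 69.0, 44.7 and 48.3 CPM untreated. ABCC3, an efflux transporter of organic anions, BID, a pro-apoptotic BH3 protein, ZAK, a stress-activated kinase, and HFE, the regulator of iron uptake, completed the 15, with within-line ratios between -4.02 and -1.85.

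**Figure D3:**
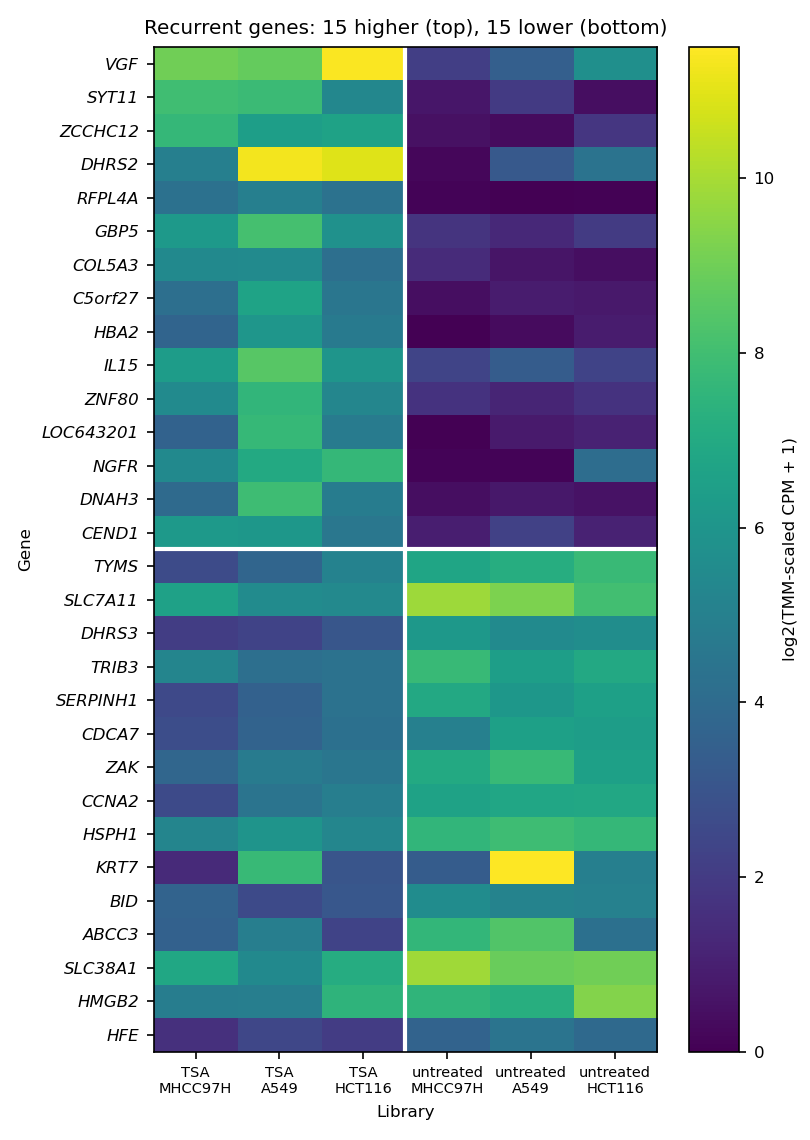
Level of the 15 recurrently higher and 15 recurrently lower genes in each library, as log2 of TMM-scaled CPM plus 1, with TSA libraries on the left and untreated on the right. The rows show the pattern in each line; KRT7 stands out in A549, at 217 CPM with TSA and 2898 CPM untreated.

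The 30 genes had been chosen for moving one way in all 3 lines, so their agreement between lines is no finding. Without HCT116 all 30 kept an adjusted p under 0.05; without MHCC97H 14 of the 15 higher and 11 of the 15 lower did, and without A549 6 and 1, with the highest adjusted p at 0.103. The log2 change without A549 still ran from 4.20 to 8.08 for the higher and from -3.33 to -2.0 for the lower genes.

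Genes that moved the most counts showed where transcripts were gained and lost. PEG10, an imprinted gene derived from a retrotransposon, had 2142, 1760 and 809 CPM with TSA, against 10.7, 227 and 39.4 CPM untreated. CLU, the secreted chaperone clusterin, had 1112, 1793 and 2057 CPM with TSA and 372, 442 and 162 CPM untreated. H1F0, the linker histone of resting cells, had 622, 1943 and 1568 CPM with TSA and 115, 213 and 761 CPM untreated, where A549 and HCT116 with TSA stood above all untreated libraries and MHCC97H with TSA under untreated HCT116. ODC1, the first enzyme of polyamine synthesis, rose by 2.03 ± 0.29 (adjusted p 0.00213), and MALAT1, a nuclear non-coding RNA, by 1.40 ± 0.26 (adjusted p 0.00506). SREBF1, a regulator of lipid synthesis, had 1360 and 2296 CPM with TSA in MHCC97H and A549, against 121 and 159 CPM untreated, but 291 CPM with TSA and 269 CPM untreated in HCT116. Among the losses, MET, the receptor of hepatocyte growth factor, had 4071, 108 and 214 CPM with TSA and 12590, 528 and 312 CPM untreated, so most of its loss in counts came from MHCC97H. ENO1, a glycolytic enolase, had 850, 1052 and 1980 CPM with TSA, against 2384, 3039 and 2793 CPM untreated. EEF1A1, the translation elongation factor, fell by 0.64 ± 0.16 (adjusted p 0.0164), HSP90AB1, a cytosolic HSP90 chaperone, by 0.78 ± 0.14 (adjusted p 0.00453) and SLC7A5, a transporter of large neutral amino acids, by 1.57 ± 0.33 (adjusted p 0.00829).

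Among the functional lists described here, the SR and hnRNP list had the lowest median change. SR proteins and hnRNPs, the regulators of splice site choice, were lower in 28 of 32 members and higher in 0, with a median change of -1.0 and median within-line ratios of -1.27, -1.13 and -0.75 in MHCC97H, A549 and HCT116; among all genes 17.2% were lower with a median of 0.08, and among genes of the same CPM bins 32.9% were lower. HNRNPA2B1 had 415, 562 and 1078 CPM with TSA, against 1557, 2107 and 2386 CPM untreated, and HNRNPD 146, 148 and 211 CPM with TSA against 400, 424 and 646 CPM untreated. SRSF7 fell by 1.43 ± 0.25 (adjusted p 0.0042). Without MHCC97H 11 members of the SR and hnRNP list were called lower, without A549 0 and without HCT116 25. The core spliceosome had 10 of 32 lower (31.2%) and 1 higher, with 33.4% lower in its CPM bins and a median of -0.32; SNRPD1 was lower (-1.62 ± 0.20, adjusted p 0.00174) and SF3B5 higher (0.55 ± 0.13, adjusted p 0.0129). No difference between the lists was tested.

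Lists of ribosome assembly, nuclear transport and chromosome structure were likewise called in 1 direction. Of 36 ribosome biogenesis factors 22 were lower and 0 higher (median -0.73), led by UTP20, a component of the small-subunit processome, at 45.4, 29.6 and 30.9 CPM with TSA and 175, 171 and 68.0 CPM untreated, and DKC1, the pseudouridine synthase dyskerin, at 88.0, 84.0 and 92.2 CPM with TSA and 323, 329 and 194 CPM untreated. Of 27 nuclear pore proteins 15 were lower and 0 higher (median -0.72); NUP107, a scaffold nucleoporin, had 61.1, 65.4 and 46.8 CPM with TSA, against 169, 181 and 144 CPM untreated. Of 21 cohesin and condensin genes 14 were lower and 0 higher (median -0.93), among them the cohesin subunit STAG2, at 62.9, 39.2 and 88.9 CPM with TSA and 332, 201 and 172 CPM untreated, and the condensin subunit NCAPH, which fell by 1.58 ± 0.32 (adjusted p 0.00735). The genes of the same CPM bins were lower in 31.1, 31.4 and 31.0% of cases, against 61.1, 55.6 and 66.7% for these 3 lists. For the groups of TSA and untreated libraries in UTP20, DKC1, NUP107 and STAG2 the ranges did not overlap. Without A549 no member of these 3 lists was called (0 each), and without MHCC97H 5, 6 and 4 were called lower.

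Mitochondrial protein import had 14 of 29 members lower (48.3%, against 29.5% in their CPM bins) and 0 higher (median -0.59). HSPD1, the matrix chaperonin HSP60, had 597, 513 and 475 CPM with TSA, against 1472, 1431 and 1520 CPM untreated, and its partner HSPE1 fell by 1.93 ± 0.16 (adjusted p 0.00111). Cytosolic tRNA synthetases had 10 of 20 lower (50%, against 34.0% in their CPM bins) and 0 higher (median -0.54). IARS, which charges isoleucine, fell by 1.19 ± 0.21 (adjusted p 0.00437). Proteasome subunits gave 4 higher and 11 lower of 32, a lower share of 34.4% against 34.0% in their CPM bins: the ATPase-ring partner PSMD2 was higher (0.72 ± 0.15, adjusted p 0.00765) and the catalytic subunit PSMB5 lower (-1.24 ± 0.24, adjusted p 0.00581). Without A549 0 members of the 3 lists were called lower, and without MHCC97H 6 import, 3 synthetase and 0 proteasome genes.

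Ciliary transport stood at the other end. Of 34 intraflagellar transport and BBSome genes, whose products carry cargo along cilia, 16 were higher and 2 lower (median 0.65), where 17.4% of all genes and 15.6% of those in the same CPM bins were higher and 47.1% of this list were. BBS9 had 26.9, 21.9 and 23.1 CPM with TSA, against 5.69, 7.17 and 7.32 CPM untreated. WDR19, of the IFT-A complex, had 83.6, 54.2 and 16.9 CPM with TSA and 20.4, 17.7 and 15.3 CPM untreated, so its HCT116 library lay within the untreated range. TTC8, also of the BBSome, was lower (-0.72 ± 0.16, adjusted p 0.00886). The median within-line ratio of the list was 0.82 in MHCC97H, 0.61 in A549 and 0.16 in HCT116. Of 34 SNAREs, the proteins that fuse vesicles with membranes, 10 were higher (29.4%, against 14.5% in their CPM bins) and 3 lower (8.82%, against 24.1%), with a median of 0.38. STX11 had 2.85, 3.94 and 6.49 CPM with TSA and 0.562, 1.72 and 1.41 CPM untreated. In both lists 0 members were called higher without A549 and 0 without MHCC97H.

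Kinesins, the motors that walk on microtubules, were called on both sides, 11 higher (28.9%) and 14 lower (36.8%) of 38, against 14.9% and 23.3% in their CPM bins. KIF1A, a carrier of synaptic vesicle precursors, had 4.50, 148 and 0.661 CPM with TSA, against 0.140, 3.10 and 0.0586 CPM untreated, and KIF5A, another neuronal kinesin, rose by 3.74 ± 1.23 (adjusted p 0.0427). The lower members that led by size were motors of mitosis: KIF15 had 3.11, 11.2 and 20.9 CPM with TSA and 29.9, 37.2 and 53.9 CPM untreated, and KIF23, of the central spindle, 31.5, 90.8 and 57.5 CPM with TSA against 163, 253 and 124 CPM untreated. Nuclear receptors gave 8 higher and 8 lower of 39 (20.5% each), near the 17.1% and 18.4% of their CPM bins. RORB, an orphan receptor, had 16, 27 and 4 reads with TSA and 0 in all untreated libraries, at least 15-fold higher over a floor of 3 reads for the untreated group. HNF4G, a hepatocyte nuclear factor, had 2.78, 0.370 and 0.481 CPM with TSA and 40.8, 0.965 and 4.68 CPM untreated. The mineralocorticoid receptor NR3C2 rose by 3.82 ± 0.65 (adjusted p 0.00391).

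Actin nucleation and contractility had 4 higher (8.51%) and 11 lower (23.4%) of 47, against 12.2% and 29.9% in their CPM bins, with gelsolin (GSN) at 191, 116 and 150 CPM with TSA and 33.9, 26.8 and 56.5 CPM untreated and the tropomyosin TPM4 at 164, 120 and 127 CPM with TSA and 955, 814 and 373 CPM untreated. RNA polymerase II and Mediator had 4 higher (9.52%) and 9 lower (21.4%) of 42, against 14.2% and 23.8% in their bins. Coat and tether genes of the COPI, COPII and TRAPP complexes had 6 higher (18.2%) and 4 lower (12.1%) of 33, against 13.2% and 27.2%. Gap junction genes had 2 higher (15.4%) and 0 lower of 13, against 18.7% and 13.9%, and peroxisome biogenesis 1 higher (6.25%) and 0 lower of 16, against 16.4% and 18.2%. Coat and tether genes moved to 14 higher, and polymerase and Mediator to 3 lower, when library totals replaced TMM.

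**Figure D4:**
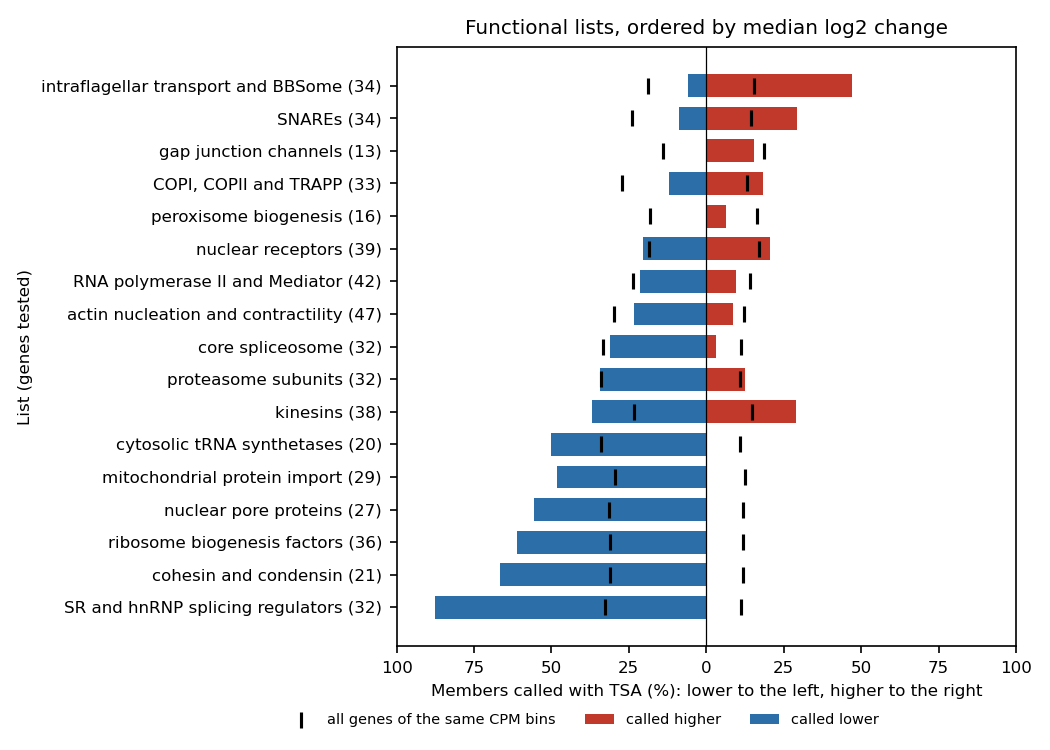
Share of each list called lower (left) and higher (right) with TSA, with black marks for all genes of the same CPM bins and the number of genes tested in parentheses. The SR and hnRNP list reaches 87.5% lower and the ciliary transport list 47.1% higher.

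Gene families were also read from the letters that open their symbols, 117 stems with at least 15 tested genes. Histone genes had the highest share called higher, 37 of 42 (88.1%), against 23.1% of genes in their CPM bins. The 8 leading stems by share called higher were completed by PCDHB, MMP, GOLGA, RGS, ATP, ATG and SEMA, and by share called lower they were NUP, RAD, DDX, MRPS, ANXA, EIF, METTL and DHX. Without A549 1 histone gene was called higher, and with at least 10 CPM required in 3 libraries 6 were. GOLGA genes, golgins and golgin-like copies, were higher in 13 of 34 (38.2%, against 19.5% in their bins) and lower in 0; GOLGA6A had 12.2, 22.9 and 25.1 CPM with TSA, against 0.491, 0.207 and 0.469 CPM untreated, and its copies can share reads. Matrix metalloproteinases were higher in 7 of 16 (43.8%, against 19.9%) and lower in 0. MMP13 had 62, 3 and 14 reads with TSA and 0 in all untreated libraries, at least 25.2-fold higher over the 3-read floor. MMP16 had 45 reads with TSA and 0 untreated, and the histone gene HIST1H4I 50 and 1. Such genes could pass the filter through their reads with TSA alone and had no room to be called lower. The split of the MMP, PCDHB and histone stems can thus be partly set by the filter. ATP-stem genes, which hold ion pumps and ATP synthase subunits, gave 27 higher (33.3%, against 15.2%) and 11 lower (13.6%, against 23.3%) of 81. ATG genes of autophagy gave 6 higher (33.3%, against 14.4%) and 0 lower of 18, with the lipid transfer protein ATG2A at 167, 240 and 48.5 CPM with TSA and 31.1, 27.4 and 24.5 CPM untreated. RAD-stem genes gave 1 higher and 10 lower of 18 (55.6% lower, against 22.1%). DDX-stem genes, mostly RNA helicases, gave 2 higher and 18 lower of 40 (45% lower, against 25.8%), and one of the 2 higher, DDX11L2, is listed as a transcribed pseudogene. EIF-stem genes gave 3 higher and 22 lower of 54 (40.7% lower, against 30.3%). MRPS-stem genes, mostly small-subunit mitochondrial ribosomal proteins, gave 13 lower of 30 (43.3%, against 25.1%), and the 1 higher, MRPS31P5, is listed as a transcribed pseudogene. With library totals EIF fell to 14 lower. Zinc-finger ZNF genes gave 38 higher (7.95%, against 19.1% in their bins) and 44 lower (9.21%, against 11.9%) of 478, and ST, PEX and SOX, the stems with the lowest share called, had 1 call among 26, 17 and 15 genes. Without A549 0 members of ATP, ATG, MMP and GOLGA were called higher and 0 of RAD, DDX, EIF and MRPS lower, and without MHCC97H 10, 2, 0 and 6, and 4, 2, 2 and 4.

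Of the genes for the enzymes that TSA inhibits, 3 of the 6 given here were called, in both directions, where 34.6% of all genes tested were called. HDAC3 had 110, 127 and 92.0 CPM with TSA, against 32.9, 52.5 and 82.1 CPM untreated (1.12 ± 0.28, edgeR adjusted p 0.0163), and HDAC6, the tubulin deacetylase, rose by 0.44 ± 0.15 (adjusted p 0.0472). HDAC2 fell by 0.63 ± 0.14 (adjusted p 0.00995). HDAC1 (0.15 ± 0.17, adjusted p 0.51), HDAC8 (-0.34 ± 0.16, adjusted p 0.127) and HDAC11 (0.50 ± 0.25, adjusted p 0.143) did not pass.

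Promoter letters differed between the called higher and called lower genes. RefSeq windows of 300 bases, 250 before to 50 after the start site, were available for 12881 tested genes, of which 2189 were higher and 2363 lower, and motifs were searched on both strands. CCAAT, the letters of the NF-Y box, stood in 40.9% of higher and 32.8% of lower promoters, against 36.3% of all. TATAAA stood in 8.59% and 5.33%, against 6.76% of all. The lower promoters held more AAGATGG, a YY1-type sequence (3.88% of higher, 9.27% of lower, 6.86% of all), more CGGAAG (25.2, 34.5 and 29.6%), more TTTGAA, the core of the cell-cycle homology region (8.04, 11.8 and 10.3%), and more of the E2F-type TTTCCCGC or TTTGGCGC (2.65, 5.29 and 3.42%). The CGGAAG difference turned when at least 10 CPM in 3 libraries were required, with 33.4% of higher and 32.6% of lower promoters. The ratio of observed to expected CpG had a median of 0.794 in higher and 0.863 in lower promoters. Within genes of like CPM the medians lay closer. In CPM bins 2, 3, 4 and 5 they were 0.748, 0.830, 0.855 and 0.877 in higher promoters, against 0.744, 0.846, 0.875 and 0.883 in lower ones. Matches to different motifs can overlap.

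The GC box differed little over all genes, 70.7% of higher and 69.2% of lower promoters with GGGCGG, but differed within genes of like CPM. In CPM bins 4 and 5, the highest, it stood in 81.9 and 82.7% of higher promoters, against 71.8 and 71.2% of lower ones. CCAAT kept its difference there, with 45.1 and 40.2% of higher and 33.6 and 32.6% of lower promoters, whereas CGGAAG came to 35.1 and 31.1% of higher and 37.4 and 35.9% of lower promoters. The lines differed in the GC box. Among genes of these 2 bins at least 2-fold moved, it stood in 82.1% of higher and 69.5% of lower promoters in MHCC97H and in 81.3 and 69.9% in A549, but in 74.1% of higher and 76.3% of lower promoters in HCT116. CCAAT was commoner in higher promoters in each line, at 46.9 against 32.8% in MHCC97H, 47.6 against 30.8% in A549 and 46.4 against 41.2% in HCT116. TTTGAA was commoner in lower promoters in each line, at 5.38 against 14.5%, 5.81 against 11.8% and 7.27 against 15.1%. These shares are descriptions of gene sets and carry no test. Without MHCC97H the called higher promoters held GGGCGG less often than the called lower ones, a difference of -5.83 percentage points against 1.44 with all 3 lines.

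**Figure D5:**
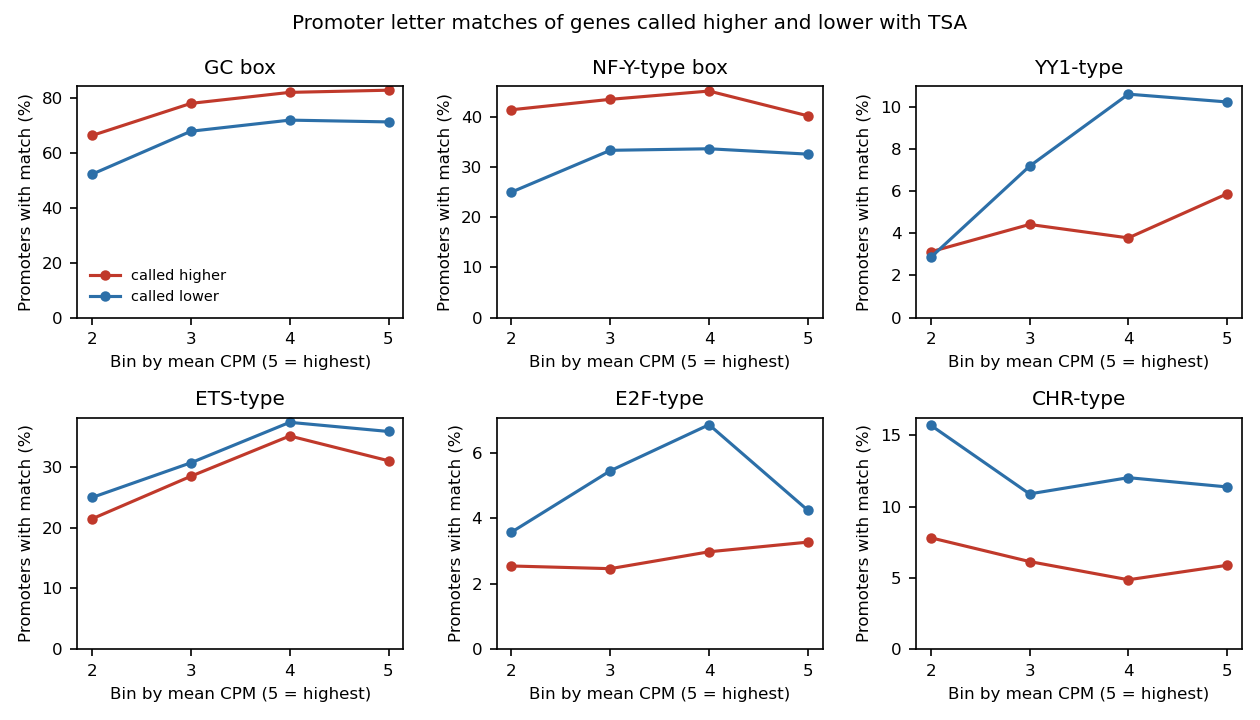
Share of promoters holding each searched sequence, for genes called higher and lower with TSA, by bin of mean CPM; the lowest bin is left out because only 24 of its lower genes had a promoter. The GC box and the NF-Y-type box lie higher for called higher genes in each bin drawn, and the E2F-type and CHR-type sequences higher for called lower genes.

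Neighbouring genes were sometimes called together. Reading tested genes along each chromosome, 40 runs of 4 or more consecutive genes were called higher and 24 called lower. With 17.4% of all genes called higher and 17.2% lower, some runs can arise without a link between neighbours, and their number was not tested. Some runs also hold entries of 1 locus that can share reads, such as HSPE1, HSPE1-MOB4 and MOB4 in a lower run. The longest higher runs had 8 genes. On chromosome 19, from 18097778 to 18281622 (GRCh38.p14), MAST3, PIK3R2, IFI30, MPV17L2, RAB3A, PDE4C, KIAA1683 and JUND were all higher. IFI30, a lysosomal thiol reductase of antigen processing, had 437, 346 and 120 CPM with TSA, against 40, 12.2 and 56.5 CPM untreated. RAB3A, a GTPase of regulated secretion, had 11.7, 16.6 and 8.84 CPM with TSA against 0.211, 1.10 and 4.92 CPM untreated. JUND, an AP-1 subunit, had 237, 202 and 160 CPM with TSA against 45.1, 37.8 and 83.6 CPM untreated. In these 3 genes the groups were apart, whereas PIK3R2 in HCT116 stood at 91.0 CPM with TSA and 89.9 CPM untreated. On chromosome 6 a run of 8 histone genes lies from 27807479 to 27890826 and a run of 7 from 26113170 to 26199988. HIST1H2BD had 30.5, 46.9 and 42.1 CPM with TSA and 3.16, 7.79 and 2.17 CPM untreated, and HIST1H2BC 6.22, 27.4 and 26.1 CPM with TSA against 2.25, 0.965 and 0.820 CPM untreated. Histone genes have close copies, and most of their messages lack the poly(A) tail on which these libraries were selected.

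Of 16929 tested genes, the within-line ratio had the same sign in 78.21% between MHCC97H and A549. This share was 64.65% between MHCC97H and HCT116 and 65.93% between A549 and HCT116. Few genes moved at least 2-fold in every line with 1 line opposed to the other 2, and HCT116 was mostly that line. Genes at least 2-fold higher in HCT116 and at least 2-fold lower in both other lines numbered 49, and 17 were the reverse, against 1 and 9 for MHCC97H and 0 and 10 for A549. CHAC1, a glutathione-degrading enzyme of the unfolded protein response, had 37.3, 18.6 and 2.88 CPM with TSA in MHCC97H, A549 and HCT116, against 1.05, 1.24 and 56.3 CPM untreated. DDIT3 (CHOP) and SESN2, also stress-response genes, were higher in MHCC97H and A549 (within-line ratios of 2.85 and 2.92, and of 2.08 and 2.11) and lower in HCT116 (-1.46 and -1.72). They were named after their values were seen and do not stand for stress genes as a whole. TRIB3, induced by amino acid shortage, was lower in MHCC97H, A549 and HCT116 alike (-2.48, -2.25 and -2.60). CPLX2, a complexin of synaptic vesicle release, had 6.49, 108 and 12.6 CPM with TSA and 85.4, 908 and 0.586 CPM untreated. AKR1C3, an aldo-keto reductase of steroids, had 134, 150 and 11.8 CPM with TSA and 580, 1260 and 0.351 CPM untreated, and shares reads with close paralogs. None of CHAC1, DDIT3, SESN2, CPLX2 and AKR1C3 passed the test over the 3 lines.

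TSA was also set directly against each of the other compounds in the same fit, with the same TSA libraries as above. Against GSK126 4901 genes (29%) were called, 2490 higher and 2411 lower with TSA, and against S2101 4505 (26.6%), 2291 higher and 2214 lower. Without A549 0 genes were called against GSK126 and 17 against S2101, and without MHCC97H 1088 and 0. The 15 recurrently higher genes were higher with TSA in both contrasts, with changes of 3.82 to 7.52 against GSK126 and 3.82 to 5.96 against S2101. Of the 15 lower genes 14 passed against GSK126, all but CCNA2 (-1.29, adjusted p 0.0968), and 15 against S2101. The lists came out unequally, as their values side by side show. Ciliary transport had a median of 0.61 against GSK126 and 0.67 against S2101, near its 0.65 against untreated cells, and histone genes 3.402 and 2.99, against 3.31. SNAREs had 0.00053 with 6 higher and 7 lower against GSK126, and 0.19 with 8 higher and 3 lower against S2101. Against untreated cells their median was 0.38, with 10 higher and 3 lower. The SR and hnRNP list had -0.63 and -0.69 with 17 members lower in each, against -1.0 with 28 lower in the contrast with untreated cells. Ribosome biogenesis had -0.17 and -0.34 with 9 and 11 lower, against -0.73 with 22, and mitochondrial import 0.00 and -0.20 with 6 and 9 lower, against -0.59 with 14. HSP90AB1 was lower with TSA than in untreated cells but did not pass against GSK126 (-0.21, adjusted p 0.268) or S2101 (-0.32, adjusted p 0.113). Doses of the 3 compounds differ.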

How the data were processed

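Libraries came from poly(A) RNA (NEBNext Ultra kit), 1 per line and condition, per the labels' protocols. The deposited tables list a raw read count per gene symbol and an RPKM value made by the authors, per the file headers; the RPKM values were not tested. The submitters' processing notes name GRCh38 and hg38. Which aligner, counter and strand setting were used is not given in the sources used here. Library totals ran from 14468304 to 19061367, which limits precision for genes with few reads; floors cover counting error only.

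Genes were tested with edgeR 4.0.16 in R 4.3.3, using TMM factors, filterByExpr, the quasi-likelihood test and Benjamini-Hochberg adjustment, on all 12 libraries with condition and cell line as terms. The common biological coefficient of variation was 0.296. It was 0.385 when only the 6 libraries compared were fitted, so the spread behind the main p-values also draws on the GSK126 and S2101 libraries. The cell line pairs the libraries by its label; deviations of TSA and untreated libraries of a line correlated with r = 0.744, 0.695 and 0.696 in MHCC97H, A549 and HCT116. Nothing in the labels describes separate cultures within a line, so p-values measure spread between these libraries. Within-line ratios used TMM-scaled CPM plus 1. On simulated counts of 16444 genes for TSA against untreated, 13.4% of 2-fold and 62.2% of 4-fold changes were recovered, with 2 false calls. The simulation gave each gene the same level and the same change in all lines. It changed only 97 genes by 2-fold and 98 by 4-fold, far fewer than were called here. Its shares therefore do not carry over to the real libraries.

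Named genes were the first 15 in each direction by the smallest within-line ratio, given a mean of 5 CPM or more where it was higher, the first 8 by change in CPM, 5 higher and 3 lower long non-coding genes, up to 4 opposed genes, and up to 3 called members per direction of each list or stem; the text prints a selection. Members and lists were chosen with earlier results of these data known. Alternatives were other scalings, filters and fits, DESeq2 1.42.0, and leaving out each line. Some genes and 1 list are not reported here.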

Additional observations from a re-analysis of the deposited data

Results flagged for a closer look

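The 4 genes given here had within-line log2 ratios of TSA to untreated of opposite sign in HCT116 and in both other lines, a pattern that other genes also showed. With 1 library per line and condition the difference between lines was not tested. CHAC1 had ratios of 4.22 in MHCC97H, 3.13 in A549 and -3.88 in HCT116. CPLX2 had -3.53, -3.06 and 3.10 in the same order of lines, and AKR1C3 had -2.10, -3.06 and 3.25. LONRF2, a RING-finger gene related to LONRF1, had -1.79, -1.98 and 3.46, from 62.5, 15.4 and 94.0 CPM with TSA and 219, 63.6 and 7.61 CPM untreated. They were the 4 with the largest distance between lines among 34 genes with a ratio of at least 2 in a line and at most -1 in another. These 34 also had at least 10 CPM in the higher library of each of the 2 lines.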

How the results depend on the processing

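The counts of called genes stayed within 1.5 times of the values given under RLE factors, library totals, no filter, a filter of 10 CPM in 3 libraries and DESeq2. They did not in 3 other kinds of fit. With only the 6 libraries compared, edgeR called 0 genes for TSA against untreated, 0 higher and 0 lower, while 5064 had an unadjusted p under 0.05. That fit has 2 residual degrees of freedom against 6, and a common coefficient of variation of 0.385 against 0.296. With no replicate block, that is without the cell line term, 260 genes were called, 114 higher and 146 lower. In that fit 14 were called against GSK126, 8 higher and 6 lower, and 0 against S2101 (0 higher, 0 lower), where 2474 had an unadjusted p under 0.05. Leaving out a line gave 12 to 6487 genes for TSA against untreated, 11 to 3305 higher and 1 to 3182 lower; without MHCC97H it was 1152 (604 higher, 548 lower). Against GSK126 it gave 0 to 5495, with 0 to 2664 higher and 0 to 2831 lower and 1088 (537, 551) without MHCC97H. Against S2101 it gave 0 to 5141, with 0 to 2515 higher and 0 to 2626 lower and 17 (14, 3) without A549. The low ends came without A549, and against S2101 without MHCC97H; fits without a line have 3 residual degrees of freedom, and the cause of the differences between lines was not tested.

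Of the named genes for TSA against untreated, 193 lost the call without A549, 117 without MHCC97H and 12 without HCT116, against 3 under DESeq2, 4 under library totals and 1 under RLE; 170 lost it without the cell line term. Among the 7 promoter sequences and the CpG ratio given in the report, higher minus lower promoters changed sign for GGGCGG without replicate 1 (MHCC97H), at -5.83 percentage points, and for CGGAAG with at least 10 CPM in 3 libraries, at 0.82. Without replicate 2 (A549) only 6 higher and 1 lower called gene had a promoter; CGGAAG came to 16.67 percentage points there, AAGATGG and the E2F-type sequence to 0, and no share was read from it.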
